A study of Triticum aestivum with 3 samples.

Results

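miR396 is an old plant miRNA family that cuts the messages of growth-regulating factors (GRFs), transcription factors that keep cells dividing in young leaves. By lowering GRFs it helps end cell division as a leaf matures, and in rice and wheat the pair sets leaf, grain and spike size. The miRNA is made from a hairpin precursor, from which the 5p strand is kept and the 3p strand, the passenger, is mostly discarded. In Arabidopsis the 5p strand pairs with GRF messages around a bulged base. Grasses also make a form with an additional G, which can pair with that site without the bulge.

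The family was taken as every entry of the deposited table named miR396 or MIR396, counted once per distinct sequence. This gave 39 of the 1896 distinct sequences, and no entry under another name held a core sequence of the family. Leaf small RNA of wheat (Triticum aestivum) seedlings was compared in 3 treatments of 2 days. The first is labelled control. DTT leaves got dithiothreitol, a reducing agent that disturbs protein folding in the endoplasmic reticulum (ER). DTT+TUDCA leaves got dithiothreitol with tauroursodeoxycholic acid, a chemical chaperone derived from bile. The labels name neither cultivar nor dose. Each treatment is 1 sample read as 2 RNA pools mixed from its biological replicates. The pools were treated as repeat runs, so no p-value is given and the spread between pools is shown in place of an error. Values are normalized reads as the authors deposited them. In bulk leaf RNA, fewer cells of a type and less RNA per cell cannot be told apart.

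DTT+TUDCA pool 1 stood apart from the other pools in its makeup. Families known mainly from grasses, such as miR444 and miR528 (183 sequences, none of them miR396), took 1.65% and 5.33% in control (pool 1 first), 1.78% and 6.66% with DTT, and 14.5% and 1.15% with DTT+TUDCA, as shares of each pool's normalized reads. Families known from crucifers, such as miR158, took 8.94% and 9.44%, 7.45% and 8.25%, and 4.11% and 8.26%. The implied depth was between 330652 and 1211766 reads per pool. The miR2118 and miR2275 families, known from reproductive tissue, summed to between 25.2 and 61.8 normalized reads. Entries named let-7 or miR-124, families known from animals, summed to 1544 in DTT pool 2 and to between 18.8 and 104 elsewhere.

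The sequences fell into a few groups, and the forms that carry the results are shown 5′ to 3′ as the table gives them, with T for U and the seed (bases 2 to 8) in capitals. The name prefix is the species in which a form was registered (ata Aegilops, osa rice, bdi Brachypodium, aof asparagus, ath Arabidopsis, aly Arabidopsis lyrata, pab spruce, atr Amborella). L and R give bases gained or lost at the 5′ and 3′ ends, and ss a substitution. The 3 most abundant forms come first.
ata-miR396e-5p: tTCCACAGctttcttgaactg
ata-miR396c-5p: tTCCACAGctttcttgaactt
ata-miR396a-5p: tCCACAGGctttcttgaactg
The next set is a form ending in A and the 22 nt forms of the leading pair.
osa-miR396a-5p_1ss21GA: tTCCACAGctttcttgaacta
aof-miR396b_R+1: tTCCACAGctttcttgaactgt
bdi-miR396c-5p_R+1_1ss21GT: tTCCACAGctttcttgaacttt
These differ inside the 5p core.
osa-miR396a-5p_1ss9CT: tTCCACAGttttcttgaactg
pab-miR396b: tTCCACGGctttcttgaactt
The 3p strand and the only entry with a wheat (tae) name follow.
osa-miR396a-3p_R+1: gTTCAATAaagctgtgggaag
ath-miR396b-3p: gCTCAAGAaagctgtgggaaa
tae-MIR396-p3: tGTTGATGgttcaagaaagcc
The last set carries the name of an Amborella precursor but holds no miR396 core.
atr-MIR396d-p3_2ss11AC18AT_1: gGTTTAAGgacacaaggt
atr-MIR396d-p3_2ss11AC18AT_2: gGTTTAAGgacacaaggtg
atr-MIR396d-p5_2ss10AC17AT: gTTTAAGGacacaaggtg

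Counted from the 5′ end of ata-miR396e-5p, ata-miR396c-5p differs by G21T and osa-miR396a-5p_1ss21GA by G21A, so these forms share the seed TCCACAG. Removing the first base of ata-miR396e-5p and adding 1 G gives ata-miR396a-5p exactly, which moves the seed to CCACAGG. Of the 39 members, 10 had the seed TCCACAG and 6 the seed CCACAGG, and 19 seeds occurred in all. By sequence, 13 members were canonical (the core of ata-miR396e-5p without the additional G), 7 were extra-G forms, 3 were canonical with 1 substitution (osa-miR396a-5p_1ss9CT has C9T, and pab-miR396b has A7G and G21T), and 7 were 3p passenger forms. Another 2 were shifted along the 5p strand, 2 came from the 3′ side of an extra-G precursor, and 4 belonged to the atr-MIR396d stretch. The remaining 1 held none of the stretches that define these groups. The table lists 23 members on the 5′ arm and 16 on the 3′ arm, but 4 of the 16 hold 5p sequence. Lengths ran from 18 to 25 nt, with 19 members at the usual 21 nt, and 9 members are registered in exactly that form.

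Most of the family was 3 sequences. ata-miR396e-5p reached 199626 and 146823 normalized reads under control conditions, 161547 and 126450.5 under DTT, and 107299 and 121577 under DTT+TUDCA. ata-miR396c-5p was at 29829 and 25467 in control, 47049 and 24373 with DTT, and 30972 and 44726 with DTT+TUDCA. ata-miR396a-5p, the leading extra-G form, was at 3667 and 6052, 3338 and 11720.5, and 44856 and 3299.8. These 3 held between 98.5% and 99.2% of the family's normalized reads in each pool. The order was ata-miR396e-5p, ata-miR396c-5p, ata-miR396a-5p in every pool but DTT+TUDCA pool 1, where ata-miR396a-5p stood above ata-miR396c-5p. The other 36 members had means over the 6 pools of 520.1 or less, and 21 members had means under 20. Of the 39, 24 were above 0 in all 6 pools.

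**Figure D1:**
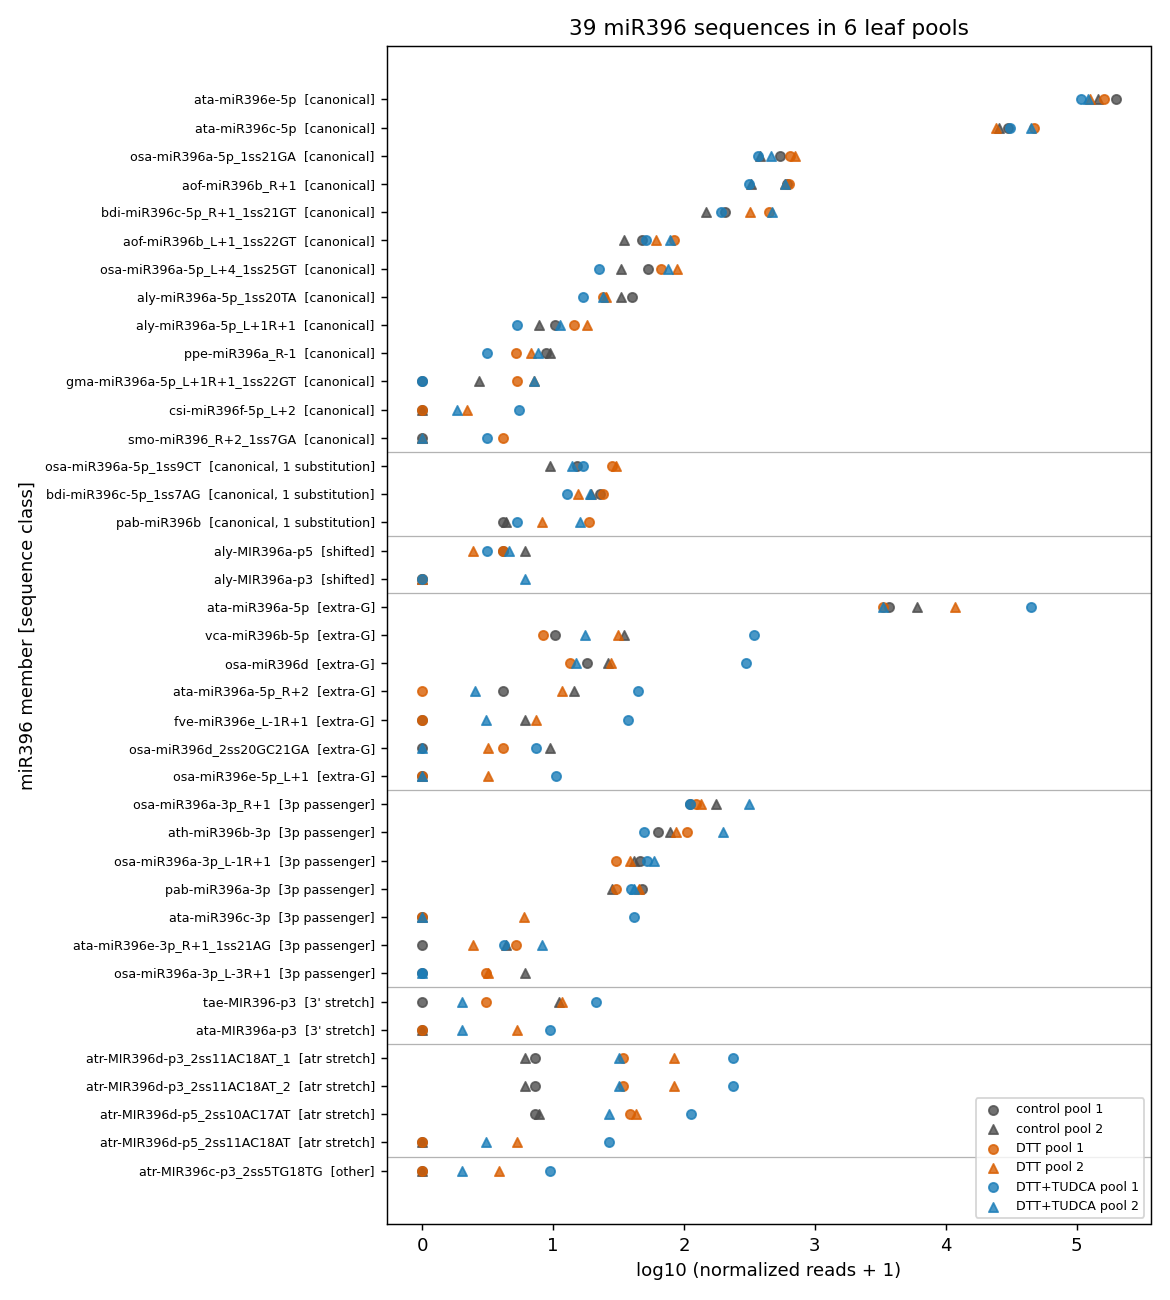
Normalized reads of all 39 miR396 sequences on a log10 axis (value plus 1), 1 row per sequence grouped by sequence class, with colour for treatment and marker for pool. The canonical ata-miR396e-5p leads at 107299 to 199626, and the extra-G forms have DTT+TUDCA pool 1 farthest to the right, except osa-miR396d_2ss20GC21GA.

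The table's positions on the TGACv1 wheat assembly place the precursors of the abundant forms on the D genome. ata-miR396e-5p is on scaffold 623533 of chromosome arm 7DS (2909 to 3014, plus strand), ata-miR396c-5p on scaffold 527017 of 6DL (16323 to 16497, plus strand), and ata-miR396a-5p on scaffold 160368 of 2DL (10056 to 10191, minus strand). The table gives 1 position per row, so other copies of a sequence are not shown. Whether all reads of these forms came from wheat was not tested. Gene annotation around these positions was not used here. Of the 39 members, 35 have a position and 4 have none, among them ath-miR396b-3p.

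Of 7 precursors with entries from both arms, the 5p entry was higher in 5 and the 3p entry in 2. Over the 6 pools the 7DS precursor gave 863322 normalized reads from ata-miR396e-5p and 19.4 from its 3p form ata-miR396e-3p_R+1_1ss21AG, a ratio of 44435. That 3p form is osa-miR396a-3p_R+1 with 1 more base, and counting the reads of both would give 878. On 6DL the ratio of ata-miR396c-5p to ata-miR396c-3p (scaffold 527017) was 4446, and on 2DL that of ata-miR396a-5p to tae-MIR396-p3 was 1645. tae-MIR396-p3 was low throughout, at 0 listed and 10.2 normalized reads in control, 2.09 and 10.8 with DTT, and 20.2 and 1.03 with DTT+TUDCA. On scaffold 500690 of 6BL (44172 to 44324, plus strand) the order was the other way, with 964 for osa-miR396a-3p_R+1 and 333 for the 25 nt osa-miR396a-5p_L+4_1ss25GT. It was so too on 6AL, with 262 for osa-miR396a-3p_L-1R+1 and 108 for osa-miR396a-5p_1ss9CT. The 25 nt form on 6BL holds ata-miR396c-5p in full. The table credits the 202416 normalized reads of ata-miR396c-5p to 6DL, and counting them on 6BL would put the 5p strand above the 3p strand there. On scaffold 527002 of 6DL ata-miR396a-5p_R+2 was 5.24-fold above ata-MIR396a-p3, and the remaining pair, of osa-miR396a-5p_1ss21GA and osa-miR396a-3p_L-3R+1, had a ratio of 334. Each ratio depends on the precursor to which the table credits a sequence. The members of these pairs that are not described elsewhere were named after their values were seen.

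The leading 3p passenger forms were highest in 1 of the DTT+TUDCA pools. osa-miR396a-3p_R+1, the most abundant, was at 109.9 and 175 in control, 122 and 133 with DTT, and 109.7 and 314 with DTT+TUDCA. ath-miR396b-3p, the Arabidopsis form without a wheat position, was at 62.8 and 77.5, 104 and 85.7, and 48.7 and 197. In both forms DTT+TUDCA pool 2 was the highest of the 6 pools, and the pools of DTT+TUDCA overlapped those of the other treatments. Together the 7 passenger forms took 0.113% (95% Wilson interval 0.0971% to 0.131%) and 0.183% of the family's normalized reads in control, 0.136% and 0.188% with DTT, and 0.157% and 0.359% (0.339% to 0.379%) with DTT+TUDCA. Intervals cover counting error only. Entries that the table lists on the 3′ arm took 0.126% to 0.599%, a share that includes the 5p sequences listed there.

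The summed family was at 234991 and 179790.1 normalized reads in control, 214359 and 165039 with DTT, and 185809 and 172128 with DTT+TUDCA. DTT against control gave a log2 ratio of -0.13, DTT+TUDCA against DTT -0.08, and DTT+TUDCA against control -0.21, and the pools overlapped in each comparison as deposited. With equal totals the last was -0.30, and with a median of ratios over all entries -0.36. The first became 0.05 when DTT pool 2 was left out and 0.08 when control pool 1 was, and the second became 0.12 when DTT pool 1 was. The family's share of all normalized reads was 35.6% and 32.0% in control, 33.5% and 30.5% with DTT, and 27.3% (27.2% to 27.4%) and 27.5% (27.5% to 27.6%) with DTT+TUDCA. The DTT+TUDCA pools were thus the lowest, and below both pools of each other treatment. It was the first family in all 6 pools, ahead of miR159, a regulator of GAMYB transcription factors, which held 9.90% to 17.1%.

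The first comparison was DTT against control, and ER stress itself was not measured. An entry was counted as higher or lower at 2-fold or more on the summed pools (pseudocount 1), among entries with at least 20 normalized reads over the comparison. Of the 25 members measured, 6 were higher and 0 lower, 24.0% against a background of 16.8% of all 958 entries higher and 10.2% lower. In all 6 both DTT pools lay above both control pools, 24.0% of the members measured against 13.3% of all entries. The median log2 ratio was 0.40 over the members and 0.08 over all entries. However, 3 of the 6 were atr-MIR396d entries, which hold no miR396 core, and 2 of these are 1 measurement listed under 2 names. Leaving the atr-MIR396d entries out, 3 of 22 members were higher, and 13.6% is under the background. Without control pool 1 the count was 9 higher and 2 lower, with no share over all entries computed for that setting. Scaled to the grass families, 6 of 24 members were higher, against a background of 18.4%, and 3 had pools that did not overlap, against 8.98%. All 3 were atr-MIR396d entries. Without those entries 3 of 21 members were higher (14.3%), and 0 had pools apart, both under the background. The scaling set the summed canonical pools 3.25-fold apart in control and 3.37-fold with DTT. The 0 therefore cannot show whether canonical members differ.

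The atr-MIR396d stretch had the largest ratios. atr-MIR396d-p3_2ss11AC18AT_1 was at 6.28 and 5.09 normalized reads in control, 33.4 and 83.5 with DTT, and 235 and 30.9 with DTT+TUDCA. Both control pools were below the other 4. atr-MIR396d-p3_2ss11AC18AT_2 is 1 base longer and has the same values in all 6 pools, so the pair is 1 measurement. It was 9.54-fold higher with DTT, 5.49-fold without DTT pool 2 and 13.6-fold without DTT pool 1. The control values stand for 7 implied reads (95% exact Poisson interval 2.81 to 14.4), and the DTT values for 148 (125 to 174). atr-MIR396d-p5_2ss10AC17AT, which overlaps it in sequence, was at 6.28 and 6.79, 37.6 and 41.8, and 113 and 25.8. It was 5.71-fold higher with DTT, and 5.42-fold to 6.01-fold without 1 of the 4 pools. With the pools scaled to the grass families the ratios were 8.08-fold and 6.07-fold. They share no core with miR396, and their place in a miR396 hairpin was not tested.

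The other called members were canonical or nearly so. bdi-miR396c-5p_R+1_1ss21GT, the 22 nt form of ata-miR396c-5p, was at 206 and 148 normalized reads in control, 446 and 320.4 with DTT, and 191 and 471 with DTT+TUDCA. Both DTT pools were above both control pools, by 2.17-fold on the sums, but by 1.81-fold without DTT pool 1 and 1.86-fold without control pool 2. osa-miR396a-5p_1ss9CT was at 14.1 and 8.49, then 27.2 and 29.5, then 16.0 and 12.9. It was 2.44-fold higher with DTT (1.97-fold without control pool 2), and both DTT+TUDCA pools were below both DTT pools. pab-miR396b was at 3.14 and 3.39, then 17.8 and 7.20, then 4.26 and 14.95, 3.45-fold higher with DTT and 2.04-fold without DTT pool 1. Its control values stand for 4 implied reads (1.09 to 10.2). After scaling to the grass families these 3 stayed past 2-fold with overlapping pools. That overlap cannot decide whether they differ, since the scaling drove the pools of such forms apart within each treatment.

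The abundant forms stayed under the limit. ata-miR396e-5p had a log2 ratio of -0.27 and ata-miR396c-5p of 0.37, both with overlapping pools. ata-miR396a-5p had 0.63, also overlapping, with -0.54 without DTT pool 2. osa-miR396a-5p_1ss21GA was at 545 and 384 in control, 649.9 and 707 with DTT, and 369.7 and 466 with DTT+TUDCA, a log2 ratio of 0.55 and no overlap of the pools. aof-miR396b_R+1, the 22 nt form of ata-miR396e-5p, was at 607 and 324, 639 and 593, and 315 and 591, a log2 ratio of 0.40.

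Shares of forms within a pool do not depend on how pools are scaled, so the ends of the canonical miRNA were compared this way. They can still depend on the makeup of a pool, in which crucifer families took 4.11% to 9.44%. The name of aly-miR396a-5p_1ss20TA gives T20A, and undoing it yields ata-miR396e-5p, so that sequence is registered in Arabidopsis lyrata too. The part of this makeup in the end shares was not tested. ata-miR396c-5p, which ends in T, made up 12.9% and 14.7% of the canonical normalized reads in control, 22.3% and 16.0% with DTT, and 22.2% and 26.6% with DTT+TUDCA. Both control pools were below the 4 treated pools, and DTT pool 2 was the nearest to them. ata-miR396e-5p, which ends in G, made up nearly all the rest, with 86.4% and 84.7%, 76.7% and 82.8%, and 77.1% and 72.4%. Its share therefore had to fall as that of ata-miR396c-5p rose. osa-miR396a-5p_1ss21GA, ending in A, made up 0.236% (0.212% to 0.262%) and 0.221% in control, 0.309% and 0.463% with DTT, and 0.266% and 0.277% with DTT+TUDCA. The control pools were again the lowest, but the intervals of control pool 1 and control pool 2 (0.194% to 0.252%) both reach into that of DTT+TUDCA pool 1 (0.239% to 0.295%). The interval of control pool 1 also reaches that of DTT+TUDCA pool 2 (0.2597% to 0.296%).

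The 22 nt forms held larger shares in both DTT pools than in both control pools. Of the 21 and 22 nt reads with G at position 21, the 22 nt form held 0.303% (0.275% to 0.335%) and 0.220% (0.191% to 0.254%) in control, 0.394% (0.364% to 0.427%) and 0.467% (0.436% to 0.4999%) with DTT, and 0.293% and 0.484% with DTT+TUDCA. With T at position 21 it held 0.685% (0.577% to 0.812%) and 0.576% in control, 0.939% (0.855% to 1.03%) and 1.30% with DTT, and 0.612% and 1.04% with DTT+TUDCA. In both pairs the intervals of the DTT pools lay above those of the control pools. DTT+TUDCA pool 1 lay between the control pools and pool 2 above them. Divided by ata-miR396e-5p, both DTT pools were above both control pools for 13 of 24 members (54.2%), against a background of 28.5%. For DTT+TUDCA against control this held for 12 of 27 members (44.4%) against 34.4%, and for DTT+TUDCA against DTT for 1 of 26 (3.85%) against 19.1%. These shares have the leading form in common and are a description. Of the 13 members, 3 were atr-MIR396d entries, and of the 12 members, 4 were. Those entries hold no miR396 core. The shares without them were not computed, so no excess over the background is claimed for members with a miR396 core.

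**Figure D2:**
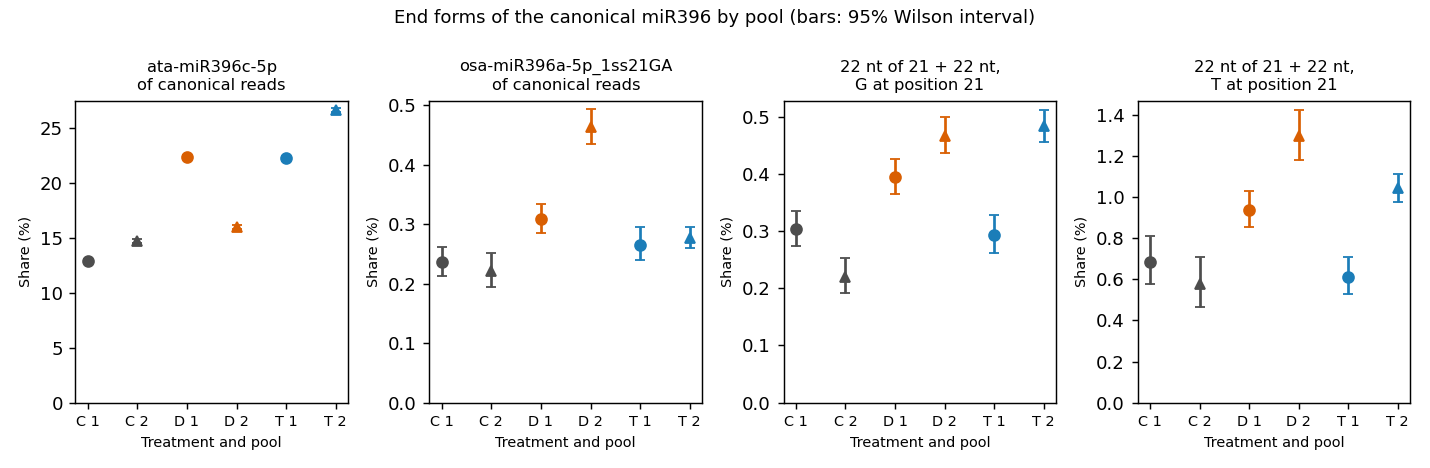
Share in percent of 4 end forms of the canonical miRNA in each pool, with 95% Wilson intervals, by treatment and pool. From left, ata-miR396c-5p ranges from 12.9% (control pool 1) to 26.6% (DTT+TUDCA pool 2), the A-ended form from 0.221% to 0.463%, and the 22 nt forms from 0.220% to 0.484% and from 0.576% to 1.30%.

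The extra-G forms differed strongly between pools of 1 treatment. Summed, they were at 3696 and 6138 normalized reads in control, 3361 and 11799 with DTT, and 45589 and 3334 with DTT+TUDCA. Of the canonical and extra-G reads together they held 1.58% (1.51% to 1.64%) and 3.42% in control, 1.57% and 7.18% with DTT, and 24.7% (24.5% to 24.9%) and 1.95% with DTT+TUDCA. DTT+TUDCA pool 1 was the highest and DTT pool 2 the next. The same pools were the highest and next in the share of grass families given above, and the crucifer share was lowest in DTT+TUDCA pool 1. The part of this makeup in the extra-G values was not tested.

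Scaling each pool to the grass families (median of ratios over 84 of their sequences above 0 in all 6 pools) brought the extra-G pools together and drove the canonical pools apart. ata-miR396a-5p then stood at 6569 and 4448 in control, 6325 and 9099 with DTT, and 8796 and 8689 with DTT+TUDCA. The DTT+TUDCA pools lay 13.7-fold apart as deposited and 1.02-fold apart after this scaling for the 7 extra-G forms summed. For the 13 canonical forms summed they went from 1.21-fold to 16.2-fold apart. By member, all 7 extra-G forms and 3 of the 4 atr-MIR396d entries had pools closer together after the scaling, against 2 of 13 canonical and 1 of 7 passenger forms.

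**Figure D3:**
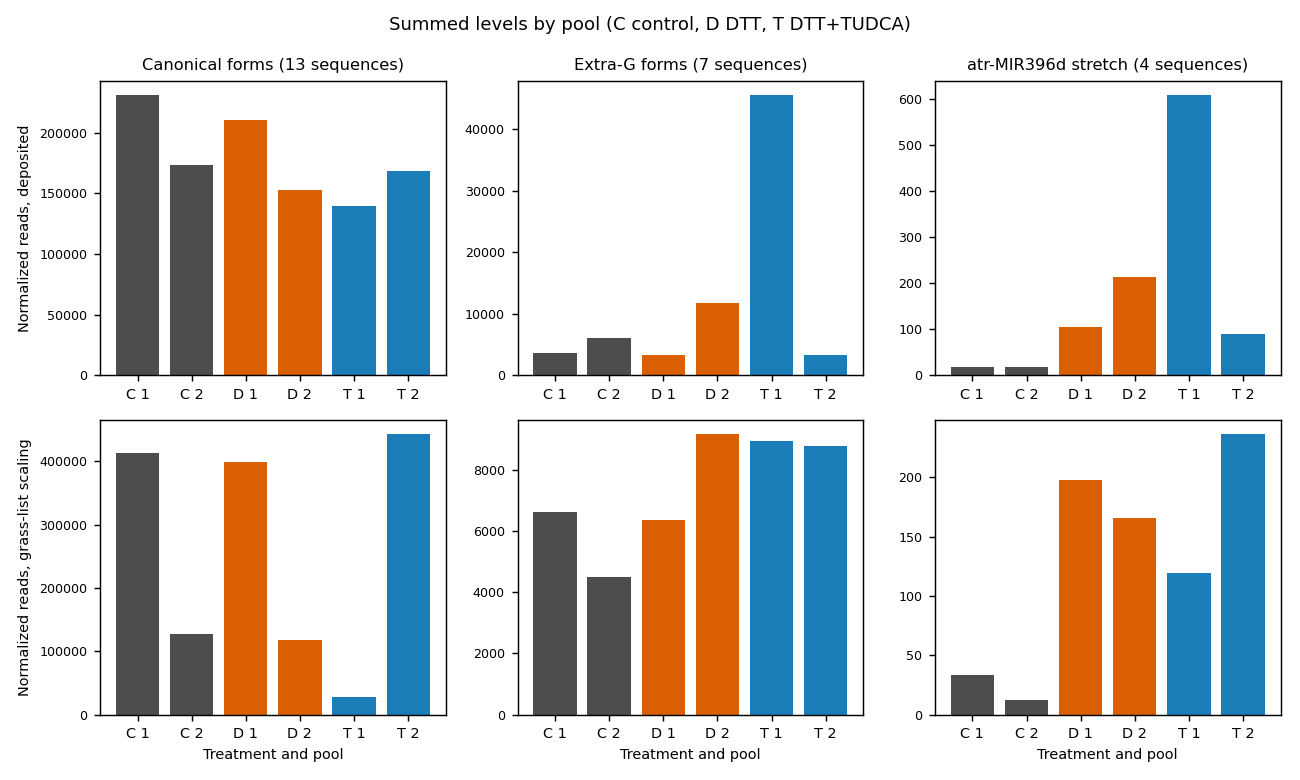
Summed normalized reads of the canonical forms, the extra-G forms and the atr-MIR396d stretch in each pool, as deposited (top) and after scaling to the grass families (bottom), with linear axes from 0. The extra-G bar of DTT+TUDCA pool 1 falls from 45589 to 8939 beside 8778 in pool 2, and the canonical bars of that treatment part to 27305 and 442437.

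The next question is what adding TUDCA to DTT did. The summed DTT+TUDCA pools held 9 members higher and 1 lower of 27 measured, 33.3% and 3.70%, against a background of 40.2% higher and 3.46% lower of 1099 entries. Both shares lie near or under the background. None of the 9 had pools that did not overlap, against 7.55% of all entries. The 1 lower member did, 3.70% of the members measured against 1.82% of all entries. With equal totals the split was 7 higher and 2 lower. Without DTT+TUDCA pool 1 it was 3 and 2, and without DTT+TUDCA pool 2 13 and 4. For these settings no share over all entries was computed, so the counts cannot be set against a background. With the grass scaling the split was 4 and 0 of 26, against a background of 8.68% higher. Of these 4, 2 had pools apart, 7.69% of the members measured against 1.77% of all entries. The grass scaling moved the median log2 ratio of all entries from 0.72 to 0.06 here, and from 0.66 to 0.29 for DTT+TUDCA against control.

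Of the 9 higher members, 5 were extra-G forms. ata-miR396a-5p was 3.20-fold higher on the sums, 2.05-fold without DTT pool 1, 7.21-fold without DTT pool 2 and 5.96-fold without DTT+TUDCA pool 2. Leaving out DTT+TUDCA pool 1 gave a log2 ratio of -1.19, and the grass scaling 0.18. The minor extra-G forms vca-miR396b-5p and osa-miR396d, chosen after their values were seen, differ from it only in their last bases. vca-miR396b-5p was at 9.42 and 33.9 in control, 7.31 and 30.2 with DTT, and 339.9 and 16.5 with DTT+TUDCA. osa-miR396d was at 17.3 and 25.5, 12.5 and 26.6, and 297 and 13.9. As deposited both were carried by DTT+TUDCA pool 1, and without it their log2 ratios were -0.18 and -0.48. After the grass scaling they were 2.90-fold and 2.11-fold higher with pools that did not overlap, at 66.6 and 43.4 against 13.9 and 23.5 for the former. Within the extra-G reads, vca-miR396b-5p made up 0.746% (0.668% to 0.832%) and 0.495% (0.351% to 0.698%) with DTT+TUDCA, 0.218% (0.105% to 0.448%) and 0.256% (0.190% to 0.346%) with DTT, and 0.255% and 0.553% in control. The DTT+TUDCA pools were above the DTT pools, but the interval of DTT pool 1 overlapped that of DTT+TUDCA pool 2, and the control pools lay in the same range. The remaining 4 were 3 atr-MIR396d entries and the passenger ata-miR396c-3p, which was listed at 0 in both control pools, DTT pool 1 and DTT+TUDCA pool 2, and stood at 5.04 in DTT pool 2 and 40.5 in DTT+TUDCA pool 1. The ratio of atr-MIR396d-p3_2ss11AC18AT_1 was 1.18 on the log2 scale and -0.91 if DTT+TUDCA pool 1 was left out.

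The lower member was aly-miR396a-5p_L+1R+1, a 23 nt canonical form at 9.42 and 6.79 normalized reads in control, 13.6 and 17.3 with DTT, and 4.26 and 10.3 with DTT+TUDCA. It was 2.05-fold lower than with DTT, with pools that did not overlap. Its log2 ratio was -0.56 without DTT+TUDCA pool 1, -0.85 without DTT pool 2, and -1.74 without DTT+TUDCA pool 2. ata-miR396e-5p had a log2 ratio of -0.33, osa-miR396a-5p_1ss21GA of -0.70 and aof-miR396b_R+1 of -0.44, each under the limit with pools apart as deposited and overlapping after the grass scaling. That scaling set the summed canonical pools of DTT+TUDCA 16.2-fold apart, so the overlap cannot decide whether these forms differ.

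The joint treatment was then set against control. Of 28 members measured, 11 were higher and 0 lower, 39.3% against a background of 41.4% higher and 6.05% lower of 1107 entries. Of the 11, 5 had pools that did not overlap, 17.9% of members against a background of 13.6%. Of these 5, 4 were atr-MIR396d entries. Leaving those entries out, 7 of 24 members were higher (29.2%), and 1 had pools apart (4.17%), both under the background. Without DTT+TUDCA pool 1 the count was 7 higher, with no share over all entries computed for that setting. Scaled to the grass families, 9 of 25 were higher (36.0%) against a background of 20.7%, and 4 had pools that did not overlap, 16.0% against 5.67%. The 4 are the 3 atr-MIR396d entries shown above and vca-miR396b-5p, so 1 of 22 members (4.55%) without the atr-MIR396d entries. Both this comparison and DTT against control use the same control pools, so their values are not independent.

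The 5 with pools apart as deposited were 4 atr-MIR396d entries and pab-miR396b. atr-MIR396d-p3_2ss11AC18AT_1 was 21.6-fold higher, 5.08-fold without DTT+TUDCA pool 1, 38.2-fold without DTT+TUDCA pool 2, and 8.04-fold with the grass scaling. atr-MIR396d-p5_2ss10AC17AT was 9.93-fold higher, 3.74-fold and 16.1-fold without those pools, and 5.28-fold with that scaling. atr-MIR396d-p5_2ss11AC18AT, 20 nt long, was listed at 0 in both control pools and DTT pool 1, at 4.32 in DTT pool 2, and at 25.6 and 2.06 with DTT+TUDCA. pab-miR396b was 2.68-fold higher, 1.26-fold without DTT+TUDCA pool 2 and 4.10-fold without pool 1.

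Of the abundant forms, ata-miR396e-5p stood below both control pools in each DTT+TUDCA pool, with a log2 ratio of -0.60, and ata-miR396c-5p higher in both, with 0.45. After the grass scaling these were -0.45 and 0.78, with pools that overlapped. Neither form reached 2-fold. The overlap cannot decide whether they differ, since the scaling set the summed canonical pools of DTT+TUDCA 16.2-fold apart. ata-miR396a-5p was 4.95-fold higher, or 9.23-fold if DTT+TUDCA pool 2 was left out, and its log2 ratio was -0.56 without DTT+TUDCA pool 1. With the grass scaling it was 0.67, with both DTT+TUDCA pools above both control pools.

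**Figure D4:**
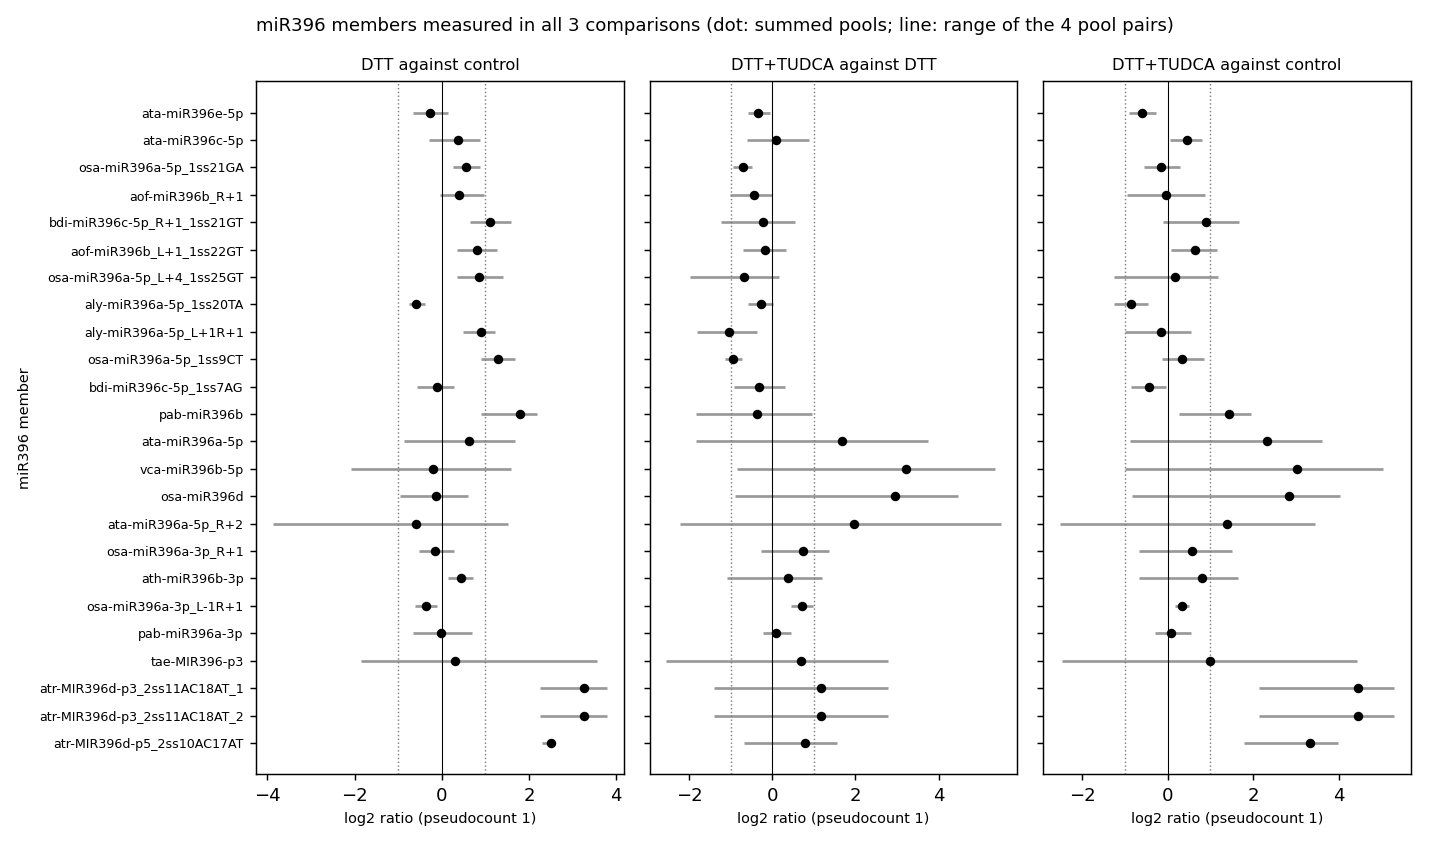
log2 ratios of the 24 members measured in all 3 comparisons. Dots give the ratio of the summed pools, lines the range of the 4 pairs of pools, and dotted lines the 2-fold limit. The 3 atr-MIR396d entries lie beyond 2-fold for every pair of pools in the DTT and DTT+TUDCA comparisons with control, and the lines of the extra-G forms cross 0.

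Other miRNAs of leaf growth give a setting for these values. The list held miR319, which targets TCP factors and acts upstream of miR396 in Arabidopsis, miR164 (NAC factors), miR166 (HD-ZIP III), miR160 and miR167 (auxin response factors), miR156 (SPL) and miR172 (AP2). Of its 147 measured entries, 16 were higher and 11 lower with DTT, 10.9% and 7.48% against the 16.8% and 10.2% of all entries, with a median log2 ratio of 0.09. For DTT+TUDCA against DTT 43 were higher and 1 lower of 157, and 27.4% higher compares with 40.2% of all entries. With the grass scaling 16 were higher and 7 lower, 9.58% and 4.19% of those measured against 8.68% and 5.60% of all entries. Against control 37 were higher and 7 lower of 155, and 23.9% compares with 41.4%. With the grass scaling 34 were higher and 14 lower, 20.9% and 8.59% against 20.7% and 11.3% of all entries. Summed miR319 was at 40955 and 25116 normalized reads in control, 19483 and 25403 with DTT, and 20030.2 and 20356 with DTT+TUDCA, -0.71 on the log2 scale between the last and control, with no overlap of pools. Summed miR164 had 0.08 with DTT and 0.49 with DTT+TUDCA, the latter with pools apart from control. Summed miR156 (0.41), miR160 (0.31) and miR167 (0.55) also had DTT+TUDCA pools apart from control. For miR166 and miR172 these pools overlapped.

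Over the 6 pools the entries most like the summed family in level (Pearson correlation of log2 values plus 1, among 214 entries with a mean of at least 100) were ata-miR394-5p at 0.77, aly-miR319a-5p at 0.72, ptc-miR6478_1ss21GA at 0.70, aof-miR319a_1ss21TC at 0.69 and osa-miR399d at 0.68. Among 40 families with a mean of at least 1000 the nearest were miR394 at 0.78, miR168 at 0.64 and miR319 at 0.51. These points share the pools and their scaling, and the values describe likeness only. ata-miR394-5p was at 13860 and 10778 in control, 9172 and 7881 with DTT, and 9594 and 8466 with DTT+TUDCA.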

How the data were processed

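Small RNA libraries (TruSeq kit, 50-base single ends) were made from pooled leaf RNA, per the labels' protocols. The values are signal, namely normalized reads per sequence that the authors deposited, per the file headers. The sources used here do not state an aligner, filters or a normalization rule (not given). Of the table's 1969 rows, 1896 distinct sequences were kept. In each pool 94.7% to 97.2% of values above 0 were whole multiples (tolerance 0.01) of 1 step, which gives the implied reads. Some sequences share fractions of reads, so no count test was run. The 2 pools of a treatment were summed. Ratios are log2 with a pseudocount of 1, a floor of 20 and a 2-fold limit, and understate changes of low entries. Named were the 8 most abundant members, tae names, the 4 most abundant on the listed 3′ arm, and up to 5 per comparison past 2-fold with pools apart. The members and lists were chosen with earlier results of these data known, and the sequence classes, end forms and shares after seeing the values. Steps were tested on simulated data. Python 3.11.15, pandas 2.3.3 and scipy 1.17.1 were used.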

Additional observations from a re-analysis of the deposited data

How the results depend on the processing

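No paired analysis was possible because each treatment is 1 sample with no test, and no label says whether pools with the same number share replicates. Control and DTT pools with the same number had like shares of grass families (1.65% and 1.78%, 5.33% and 6.66%), and the DTT+TUDCA pools did not follow them. The log2 ratio of the summed family moved by less than the spread between pools under each alternative. For DTT+TUDCA against control it was -0.21 against a spread of 0.28, and it passed that size with equal totals (-0.30), a median of ratios (-0.36) and without control pool 2. Leaving out 1 pool gave -0.33 to 0.08 for DTT against control, -0.26 to 0.12 for DTT+TUDCA against DTT and -0.39 to -0.01 for DTT+TUDCA against control. Counts of members 2-fold apart depended on the rule. Shares over all entries were not computed for left-out pools, other floors or other limits. Leaving out 1 pool gave 5 to 11, 5 to 17 and 7 to 13 in that order of comparisons, against 6, 10 and 11. A floor of 100 gave 3, 5 and 6, a 1.5-fold limit 12, 17 and 18, and grass names alone 2, 4 and 4. Leaving out the atr-MIR396d entries, also chosen after seeing the data, gave 3, 7 and 7. Without a floor the first was 14 and the last 20, and the grass scaling gave 4 for the second. For DTT+TUDCA against DTT, the log2 ratio of atr-MIR396d-p3_2ss11AC18AT_1 and of its twin atr-MIR396d-p3_2ss11AC18AT_2 turned from 1.18 to -0.0060 with the grass scaling, and ran from -0.91 to 2.00 over leaving out 1 pool. Over the same omissions atr-MIR396d-p5_2ss11AC18AT ran from -0.054 to 4.84, and ata-miR396a-5p from -1.19 to 2.85, and from -0.56 to 3.21 against control. The cause was not tested. Arms set by sequence, likewise chosen later, moved the median 3′ share from 0.266% to 0.180%. Low members rest on few implied reads, and a listed 0 gives no upper limit.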
